A study of Mus musculus with 13 samples.

Results

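Integrins and laminins were followed in SM1 tumours as 34 genes of the 18193 gene symbols on the array, chosen by symbol (Itga and Itgb chains, and Lama, Lamb and Lamc chains). They comprised 24 integrin genes and 10 laminin genes, of which 5 were the leukocyte integrins Itgal, Itgam, Itgax, Itgb2 and Itgb7 and 29 were the others. Other genes of these families were not analysed here. SM1 is a transplantable mouse melanoma with the BRAF V600E mutation. It was grown in C57BL/6 mice that received an adoptive transfer of splenocytes, from pmel-1 mice (T cells with a receptor for the melanocyte protein gp100) or from C57BL/6 mice as the control transfer.

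RNA of whole tumours was hybridised to 13 arrays in 6 groups. After the control transfer, 2 arrays came from vehicle and 2 from the drug combination. After the pmel-1 transfer, 2 came from vehicle, 2 from dabrafenib, 2 from trametinib and 3 from the combination of these drugs. Dabrafenib inhibits BRAF and trametinib inhibits MEK, the kinase below it. All groups carried the same tumour line and all received transferred cells, so no group lacked a transfer. The comparisons ask what each treatment and each transfer did to these genes. The labels do not say that replicates came from separate animals, so the tests measure the spread between these arrays, which may be technical. In RNA of whole tumours, fewer cells of a type and less RNA per cell cannot be told apart.

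Integrins are receptors that hold a cell to matrix or to another cell, each made of an alpha and a beta chain. The pair sets the ligand: alpha1, alpha2 and alpha10 with beta1 bind collagen, alpha3, alpha6 and alpha7 bind laminin, and alpha5, alpha8 and alphav bind proteins that carry the RGD motif. Beta2 chains with alphaL, alphaM or alphaX are made by leukocytes. Laminins are trimers of an alpha, a beta and a gamma chain and form the basement membrane sheet to which many cells attach.

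Promoter windows from RefSeq (GRCm38.p6, from 250 bases before to 50 after the annotated start) are shown for the largest fall (Itga8), for the laminin chain that rose with every drug treatment (Lamb2) and for a leukocyte integrin that rose with every drug treatment in pmel-1 recipients (Itgax). Itga8 lies at chr2:12301895-12302194 (minus strand), Lamb2 at chr9:108479612-108479911 (plus strand) and Itgax at chr7:128129300-128129599 (plus strand). Each is written 5′ to 3′ on the gene's strand, with capitals for a motif match.
Itga8: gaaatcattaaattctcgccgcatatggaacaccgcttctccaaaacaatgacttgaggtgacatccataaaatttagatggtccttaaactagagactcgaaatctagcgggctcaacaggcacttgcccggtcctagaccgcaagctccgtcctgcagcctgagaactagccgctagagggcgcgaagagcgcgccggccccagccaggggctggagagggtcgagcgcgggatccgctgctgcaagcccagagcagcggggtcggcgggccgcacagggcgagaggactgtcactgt
Lamb2: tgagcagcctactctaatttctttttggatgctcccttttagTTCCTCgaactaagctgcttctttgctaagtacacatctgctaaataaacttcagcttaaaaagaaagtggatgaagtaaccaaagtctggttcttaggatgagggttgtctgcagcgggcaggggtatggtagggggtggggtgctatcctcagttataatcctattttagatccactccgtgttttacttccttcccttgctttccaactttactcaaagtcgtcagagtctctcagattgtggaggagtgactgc
Itgax: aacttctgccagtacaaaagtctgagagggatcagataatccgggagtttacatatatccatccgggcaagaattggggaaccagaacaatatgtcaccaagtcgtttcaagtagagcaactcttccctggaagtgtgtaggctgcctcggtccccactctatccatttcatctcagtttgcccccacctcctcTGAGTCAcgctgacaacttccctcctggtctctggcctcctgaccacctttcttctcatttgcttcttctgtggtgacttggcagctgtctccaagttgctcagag

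Of the 34 genes, 22 have such a window. The motifs searched on both strands were AP-1 (TGANTCA), CRE (TGACGTCA), an ETS core (CGGAAG), a PU.1 core (GAGGAA) and the E-boxes CACGTG and CATGTG. The Itga8 window holds 0 matches. The Lamb2 window holds 1, the PU.1 core on the opposite strand (TTCCTC), at position -208 from the start. The Itgax window holds 1, an AP-1 match (TGAGTCA), at position -56 from the start. Over all 32851 windows of the table, 28.3% hold the PU.1 core and 7.81% the AP-1 motif. A match is a stretch of letters and no measured binding site.

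Of the 34 genes, 28 exceeded the log2 intensity 5.79 on at least 2 arrays and were tested among 13785 genes with limma. This level is the 40th percentile of all values, and a value under it is called not well above background. Itgam, Itgb6, Itgb8, Lama1, Lama3 and Lamb3 stayed under it on all 13 arrays. Genes with a Benjamini-Hochberg adjusted p under 0.05 over all genes tested are said to rise or fall. Differences are log2 differences ± SE.

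Tumour markers and RNA quality were checked first. The mean log2 level of 8 melanocytic markers was 11.32 to 11.55 on the vehicle arrays and 12.44 to 12.62 on the drug arrays, without overlap. Of the 8, 7 rose with both drugs over both kinds of recipient, where 28.1% of all genes rose and 24.5% fell. The mean log2 level of 4 Schwann cell markers was 10.17 to 10.84 with vehicle and 10.96 to 11.40 with a drug, also without overlap. Of these 4, 2 rose and 1 fell in the same comparison, too few genes to set against the shares of all genes. Both lists separate the same arrays as Itga8, Lamb2, Itgb4 and Itga3, and, by narrow margins, Itga10 and Itgb5. The share of all genes that separate these arrays was not counted, so the separation is not read as particular to these genes or lists. The mean log2 3′ to 5′ ratio of control probe sets was 0.60 to 1.65 on the 7 arrays of drug-treated pmel-1 recipients and 0.18 to 0.42 on the other 6. In control recipients it was 0.28 and 0.25 with vehicle and 0.19 and 0.42 with both drugs. The adipocyte gene Adipoq read 10.05, 10.32 and 9.30 on the second arrays of the combination and dabrafenib groups and the first of trametinib, and the muscle gene Acta1 read 9.90 on control vehicle replicate 3. Their part in the results was not tested beyond the fits given below.

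**Figure D1:**
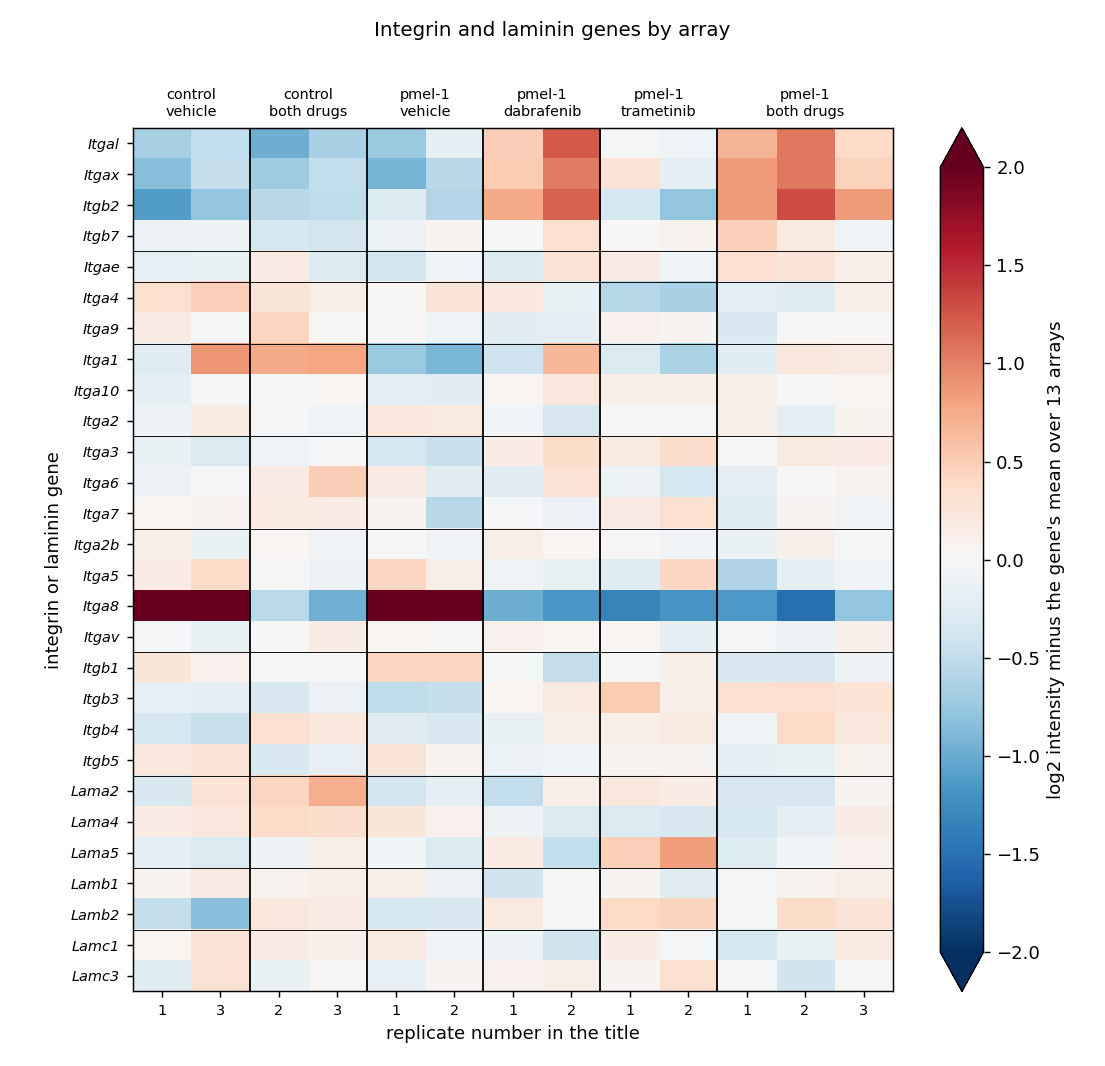
Heat map of the 28 tested integrin and laminin genes (rows, by role) on the 13 arrays (columns, by group and replicate number). Colour is the log2 intensity minus the gene's mean over all arrays, and passes its limits at -2 and 2. Itga8 is the row with the widest range, 4.29, and the other wide rows are the leukocyte integrins Itgal, Itgax and Itgb2.

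Itga8, the alpha chain that pairs with beta1 and binds nephronectin and other RGD proteins, fell the furthest of these genes, to near background, under every drug treatment and in both kinds of recipient. Its log2 level was 9.15 and 9.78 in control recipients given vehicle and 9.27 and 9.42 in pmel-1 recipients given vehicle. With both drugs it read 6.47 and 6.04 in control recipients and 5.84, 5.49 and 6.21 in pmel-1 recipients. It read 6.02 and 5.84 with dabrafenib and 5.67 and 5.82 with trametinib. All 9 drug arrays lay below all 4 vehicle arrays, and 2 of the 9 were not well above background.

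The fall of Itga8 over both kinds of recipient was -3.35 ± 0.17 (10.2-fold, adjusted p = 1.15e-07), the 9th largest fall among all genes tested. It was -3.21 ± 0.25 in control recipients (9.26-fold, adjusted p = 7.02e-06) and -3.50 ± 0.23 in pmel-1 recipients (11.3-fold, adjusted p = 2.7e-06). Dabrafenib alone gave -3.41 ± 0.25 and trametinib alone -3.60 ± 0.25, with 1 of the 2 trametinib arrays not well above background. The range of Itga8 over the arrays exceeded that of 99.7% of genes tested. Its other probe set was under 5.79 on all 13 arrays, so the gene rests on 1 probe set. With all probe sets averaged the falls were smaller but still passed the test, the smallest being -2.11 in control recipients.

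**Figure D2:**
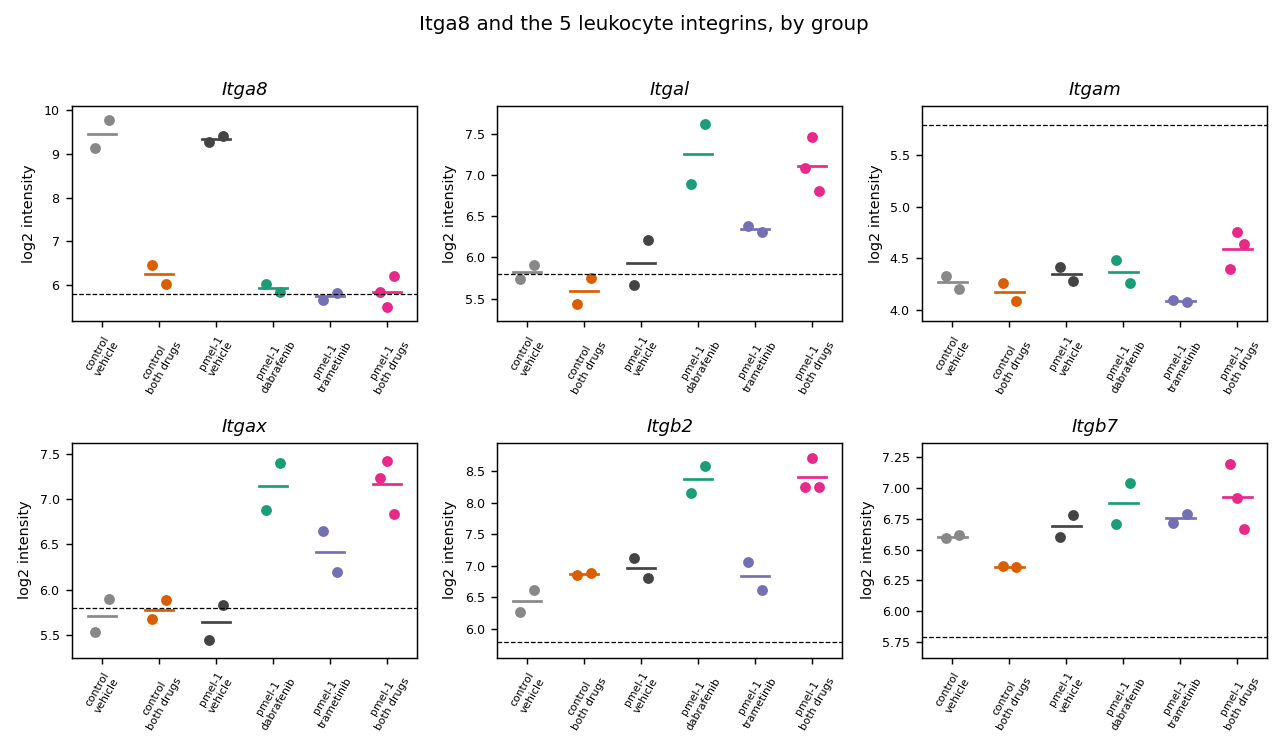
Log2 intensity of Itga8 and the 5 leukocyte integrins by group. Points are arrays, bars group means and the dashed line the background level of 5.79, and the vertical scale differs between panels. All drug arrays of Itga8 lie at 6.47 or below against 9.15 or above with vehicle, and Itgam lies below the line on every array.

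Over both kinds of recipient, 13 of the 28 tested genes changed with both drugs, against 52.6% of all genes tested, so the share was not above the background. Of these, 9 rose and 4 fell, where 28.1% of all genes rose and 24.5% fell. The median difference of the 28 genes was 0.10 and that of all genes tested 0.01. Within control recipients 4 of 28 changed (35.4% of all genes), 2 higher (18.7%) and 2 lower (16.7%). Within pmel-1 recipients 11 of 28 changed (45.6% of all genes), 8 higher (24.3%) and 3 lower (21.2%). These comparisons share the arrays of each recipient kind, and the values are given side by side.

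**Figure D3:**
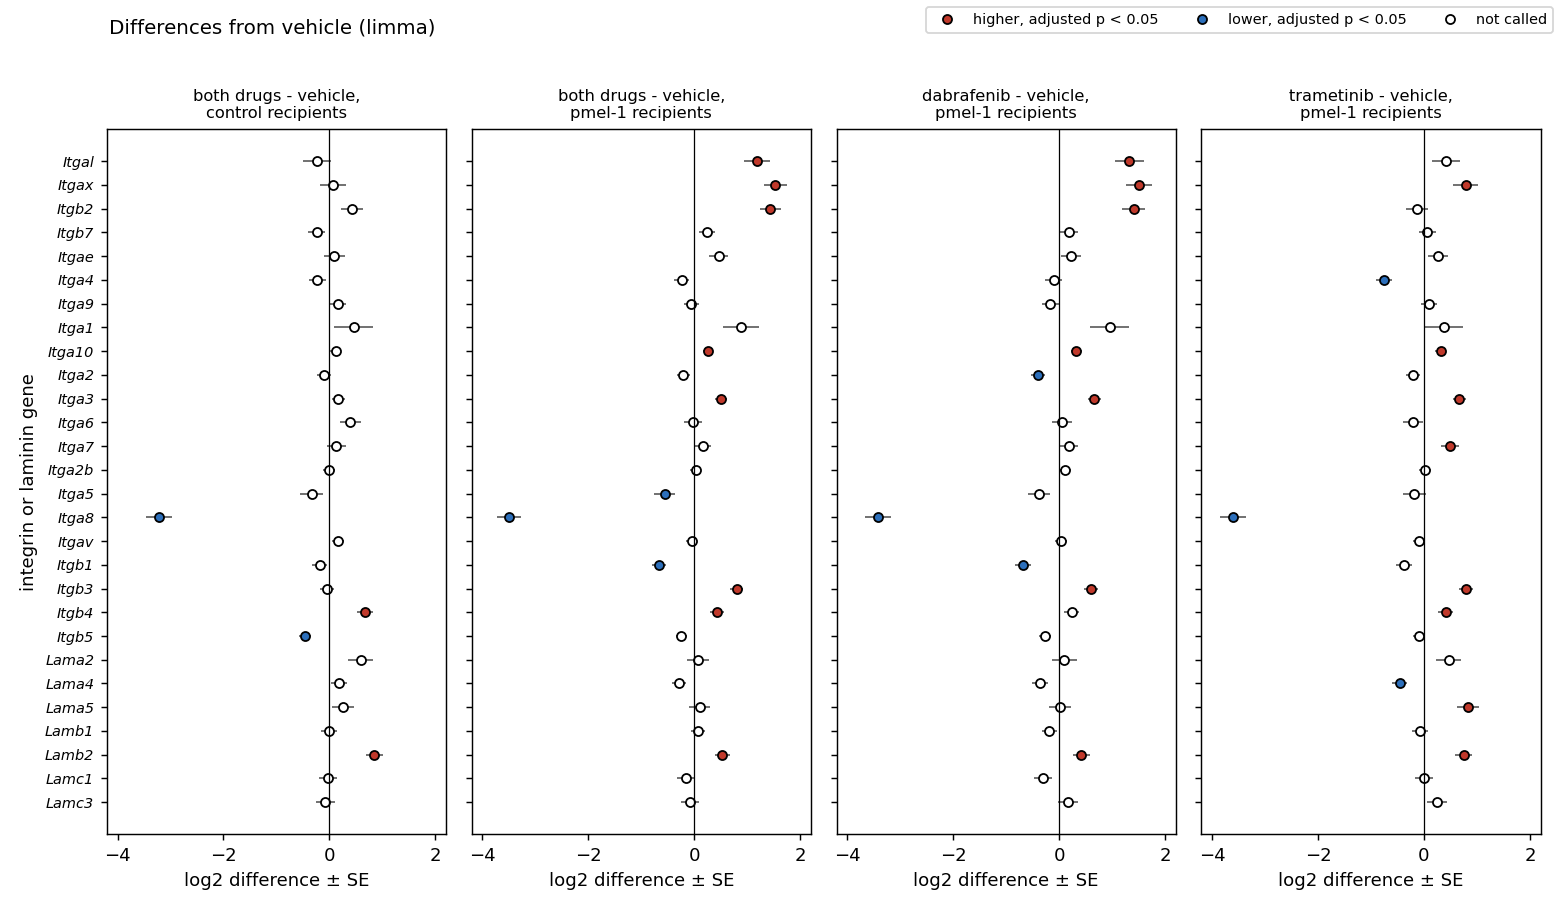
Log2 difference from vehicle ± SE for each tested gene in 4 comparisons, from limma. Filled points passed an adjusted p of 0.05 (red higher, blue lower) and open points did not. Itga8 lies between -3.60 and -3.21 in all 4 panels, and Itgal, Itgax and Itgb2 lie above 1 in the pmel-1 recipients given both drugs or dabrafenib.

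Among the alpha chains that bind RGD proteins, the fall was not shared by all. Itga5, the chain of the main fibronectin receptor, read 8.65 to 8.94 on the vehicle arrays and 7.93 to 8.94 on the drug arrays. It fell by 0.45 ± 0.15 with both drugs over both kinds of recipient (adjusted p = 0.0225) and by 0.56 ± 0.20 in pmel-1 recipients (adjusted p = 0.0371). The first call was lost without control vehicle replicate 3, control combination replicate 3 or pmel-1 vehicle replicate 1 (-0.42 to -0.37), and with the mean of its probe sets (-0.19). The second was lost without either pmel-1 vehicle array or pmel-1 combination replicate 1 or 2 (-0.71 to -0.41). Both were lost with the 3′ to 5′ ratio as a covariate (-0.26 and -0.20). Itgav, whose product binds vitronectin, stayed within 12.24 to 12.57 on all arrays, with a difference of 0.06 ± 0.08 (95% interval -0.11 to 0.22). This is the brightest of its probe sets, and a dimmer one, above 5.79 on all 13 arrays, fell. It gave -1.09 over both kinds of recipient, -1.51 with both drugs, -1.61 with dabrafenib and -1.35 with trametinib in pmel-1 recipients (limma adjusted p over all probe sets tested = 4.61e-04, 5.84e-04, 9.32e-04 and 0.00272), so the reading of Itgav depends on the probe set. In control recipients given both drugs the dimmer probe set gave -0.67, not called. Itga2b, the platelet chain, differed by 0.01 ± 0.08 (95% interval -0.17 to 0.18).

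The laminin-binding chain Itga3 rose in pmel-1 recipients. Its vehicle arrays read 7.80 to 8.08 and its drug arrays 8.15 to 8.60, without overlap. It rose by 0.50 ± 0.11 with both drugs, 0.66 ± 0.12 with dabrafenib and 0.66 ± 0.12 with trametinib (adjusted p = 0.00347, 0.00146 and 0.00145). In control recipients the difference was 0.17 ± 0.12 and did not pass. Another probe set of Itga3 went the other way with dabrafenib (-0.37, adjusted p = 0.021) and the mean of its probe sets gave 0.13 there, not called, so the direction depends on the probe set. With the 3′ to 5′ covariate the rise with both drugs was 0.45 and was not called. Itga6, another laminin-binding chain, was called in no comparison by its kept probe set (-0.21 with trametinib), while its other probe set fell with trametinib (-0.65, adjusted p = 0.0249). Itga7, the muscle chain, rose with trametinib (0.49 ± 0.17, adjusted p = 0.0424), a call lost without pmel-1 vehicle replicate 2 (0.19), trametinib replicate 1 (0.57) or trametinib replicate 2 (0.41), and with the 3′ to 5′ covariate (0.57).

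Among collagen-binding chains the changes were small or uneven. Itga1 ranged from 6.28 to 8.08 on the vehicle arrays and from 6.57 to 8.0 on the drug arrays, which overlap. Its difference over both kinds of recipient was 0.67 ± 0.25 (adjusted p = 0.0407), called in neither kind alone by the kept probe set. It was 0.39 and not called without control vehicle replicate 1, and the call was also lost without either control combination array, either pmel-1 vehicle array or pmel-1 combination replicate 2 or 3 (0.62 to 0.71). With the 3′ to 5′ covariate it was 0.33 and was not called. The high vehicle value, 8.08, was that of control vehicle replicate 3, the array with high Acta1. The other Itga1 probe set, above 5.79 on only 3 arrays, gave 0.58 over both kinds of recipient. It gave 0.83 in control and 0.33 in pmel-1 recipients (limma adjusted p over probe sets = 0.0101, 0.0191 and 0.248). Whether Itga1 rose in control recipients therefore depends on the probe set. Itga10 rose by 0.25 ± 0.09 in pmel-1 recipients from levels not well above background (at least 1.17-fold), and that call was lost without any 1 of the 5 arrays (0.22 to 0.28) and with the 3′ to 5′ covariate (0.13). Itga2 fell by 0.40 ± 0.14 with dabrafenib (adjusted p = 0.0362), a call lost without dabrafenib replicate 2 (-0.26) or either vehicle array (-0.40 and -0.39), and with the covariate (-0.22).

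The beta chains moved in different directions. Itgb4, which pairs with alpha6 in the laminin receptor of hemidesmosomes, read 8.62 to 8.84 on the vehicle arrays and 8.91 to 9.44 on the drug arrays, without overlap. It rose by 0.55 ± 0.10 over both kinds of recipient (1.47-fold, adjusted p = 6.21e-04), by 0.67 ± 0.14 in control recipients and by 0.43 ± 0.13 in pmel-1 recipients. With trametinib it rose by 0.41 ± 0.14, a call lost without any 1 of the 4 arrays (0.37 to 0.45) and with the 3′ to 5′ covariate (0.34). With dabrafenib it differed by 0.24 ± 0.14. In pmel-1 recipients the call with both drugs was also lost without either vehicle array or combination replicate 2 or 3 (0.33 to 0.47), and with the 3′ to 5′ covariate (0.34).

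Itgb1, the shared partner of most matrix-binding alpha chains, fell in pmel-1 recipients. Its vehicle arrays read 11.13 to 11.47 and its drug arrays 10.56 to 11.15. It fell by 0.67 ± 0.13 with both drugs (1.59-fold, adjusted p = 0.00182) and by 0.68 ± 0.15 with dabrafenib (adjusted p = 0.00372). Trametinib gave -0.37 ± 0.15 (adjusted p = 0.065) and both drugs in control recipients -0.19 ± 0.15. Its other probe sets above background went the same way. Another, nearly as bright, fell with trametinib (-0.53, limma adjusted p over probe sets = 0.0318), so the trametinib call depends on the probe set. Over both kinds of recipient Itgb1 gave -0.43 with both drugs (adjusted p = 0.00344) and stayed called in every alternative. In pmel-1 recipients the 3′ to 5′ covariate gave -0.30 with both drugs and -0.31 with dabrafenib, not called. Without the 3 arrays high in Adipoq the dabrafenib difference was -0.45 and was not called.

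Itgb3, the partner of alphav in the vitronectin receptor, rose in pmel-1 recipients under every drug treatment. It read 7.32 and 7.36 with vehicle, 7.86 and 8.03 with dabrafenib, 8.34 and 7.93 with trametinib and 8.15, 8.17 and 8.10 with both. The rises were 0.61 ± 0.13, 0.80 ± 0.13 and 0.80 ± 0.12 (adjusted p = 0.00388, 8.29e-04 and 3.23e-04). In control recipients it read 7.67 and 7.65 with vehicle and 7.52 and 7.71 with both drugs, a difference of -0.05 ± 0.13 (95% interval -0.34 to 0.25). The difference between the recipient kinds, 0.85 ± 0.18, did not pass over all genes (adjusted p = 0.085). Its other probe set was flat in these comparisons (0.00 with both drugs, -0.11 with dabrafenib), and with the mean of the probe sets the dabrafenib rise was 0.25 and was not called. It was 0.35 and not called with the 3′ to 5′ covariate.

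Itgb5, another partner of alphav, fell by 0.46 ± 0.11 in control recipients (adjusted p = 0.00866), a call lost without control vehicle replicate 3 (-0.44) and without the second array of the combination (-0.39). Over both kinds of recipient it fell by 0.35 ± 0.08 (adjusted p = 0.00236). Its other probe sets, above 5.79 on all 13 arrays, gave -0.40, -0.23 and -0.12 there (limma adjusted p over probe sets = 0.00245, 0.0846 and 0.287). In the same order they gave -0.47, -0.50 and -0.30 in control recipients and -0.33, 0.05 and 0.05 in pmel-1 recipients given both drugs. The reading of Itgb5 therefore depends on the probe set. Itga4, whose product binds VCAM-1 and fibronectin, fell with trametinib. In pmel-1 recipients both vehicle arrays read 12.77 or higher and the trametinib arrays 12.17 and 12.10, a fall of 0.75 ± 0.15 (1.68-fold, adjusted p = 0.00291). With the mean of its probe sets the difference was -0.67 and was not called (adjusted p = 0.0526). With its brightest probe set, the one kept, Itga4 was called in no other comparison, and gave -0.24 with both drugs and -0.10 with dabrafenib in pmel-1 recipients. Another 2 of its probe sets above 5.79 on all 13 arrays fell there too, by 1.29 and 1.41 with both drugs and by 1.11 and 0.80 with dabrafenib (limma adjusted p over probe sets = 0.00107, 0.00125, 0.00545 and 0.0443). Whether Itga4 fell with these treatments therefore depends on the probe set. In control recipients given both drugs the same 2 probe sets gave -0.51 and -0.06, not called. Itga9, the related chain, and Itgae, the alpha chain of the E-cadherin receptor of lymphocytes, were called in no comparison by the probe sets kept. Another Itga9 probe set above 5.79 on all 13 arrays rose with both drugs in control recipients (0.73, adjusted p = 0.0131). Itgae was not well above background on 6 of the 9 drug arrays.

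**Figure D4:**
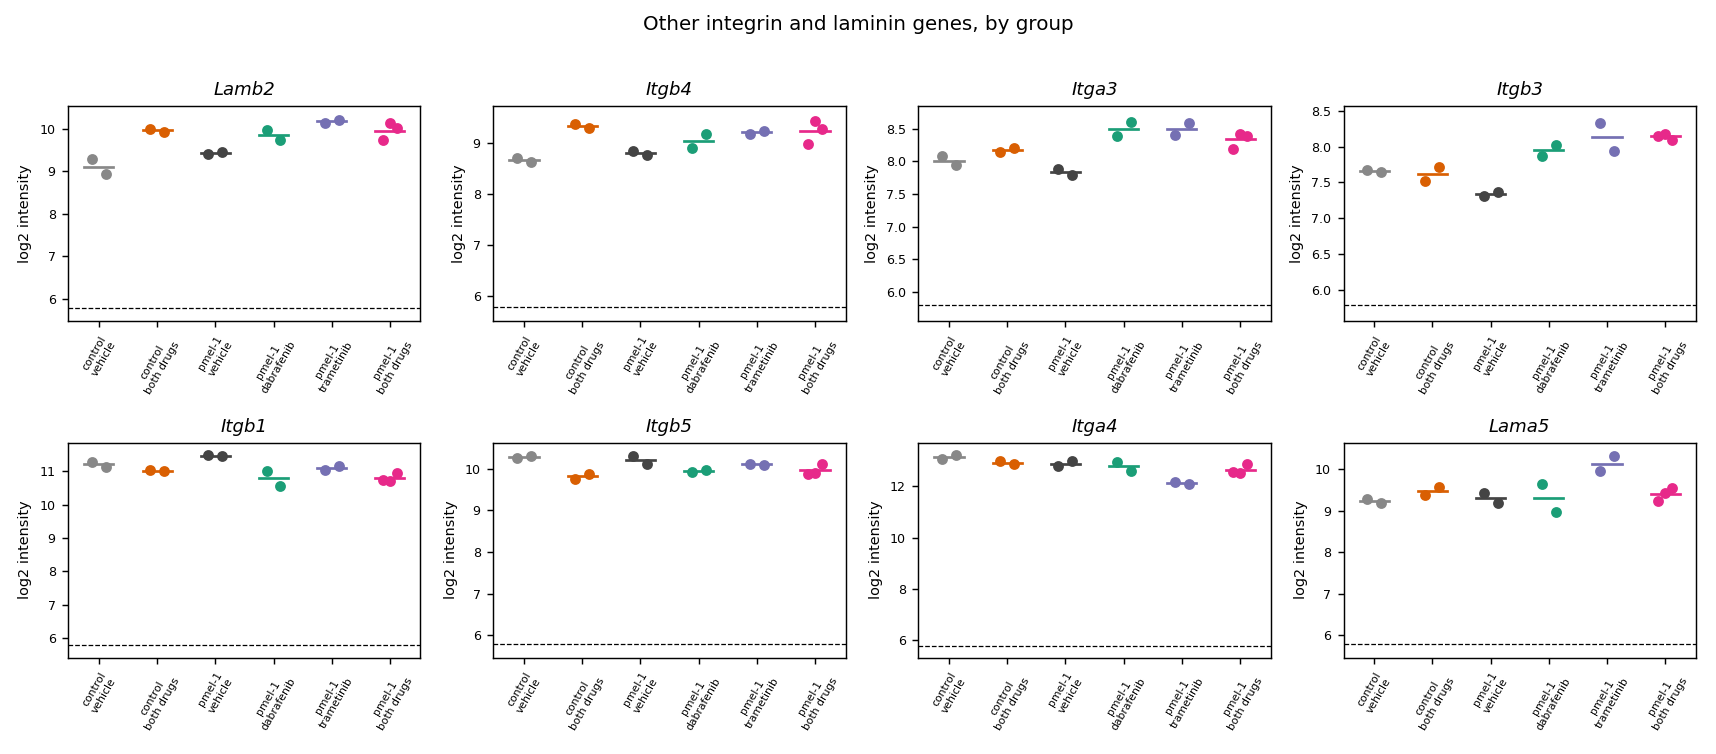
Log2 intensity of 8 integrin and laminin genes outside the leukocyte group, by group. Points are arrays, bars group means and the dashed line the background level of 5.79, with a scale of its own in each panel. Lamb2 reads 9.73 or higher on all drug arrays and 9.45 or lower on all vehicle arrays, and Lama5 is highest on the trametinib arrays (9.94 and 10.30).

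Of the 7 laminin chains tested, 1 changed over both kinds of recipient (52.6% of all genes). Lamb2, the beta2 chain of laminins at basement membranes of vessels, muscle and kidney, read 9.29, 8.93, 9.40 and 9.45 on the vehicle arrays. It read 9.99 and 9.93 with both drugs in control recipients, and 9.96 and 9.73 with dabrafenib, 10.14 and 10.21 with trametinib and 9.73, 10.13 and 10.01 with both in pmel-1 recipients. The 9 drug arrays lay above the 4 vehicle arrays. The rise was 0.69 ± 0.10 over both kinds of recipient (1.61-fold, adjusted p = 1.93e-04), 0.85 ± 0.15 in control recipients (adjusted p = 0.00141) and 0.53 ± 0.14 in pmel-1 recipients (adjusted p = 0.00929). It was 0.42 ± 0.15 with dabrafenib, a call lost without any 1 of the 4 arrays (0.30 to 0.54) and with the 3′ to 5′ covariate (0.61), and 0.75 ± 0.15 with trametinib. Without pmel-1 vehicle replicate 1 the rise with both drugs in pmel-1 recipients was 0.51 and was not called.

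Lama5, the alpha5 chain of epithelial and vascular laminins, and Lama4, the alpha4 chain of vessel walls, changed with trametinib. Lama5 read 9.41 and 9.18 with vehicle and 9.94 and 10.30 with trametinib, a rise of 0.82 ± 0.21 (1.77-fold, adjusted p = 0.00905), with 0.01 ± 0.21 for dabrafenib. The difference between the drugs was -0.81 ± 0.21 for dabrafenib minus trametinib (adjusted p = 0.12). The Lama5 call was lost without vehicle replicate 2 (0.71) or trametinib replicate 2 (0.64). Lama4 fell by 0.46 ± 0.15 (adjusted p = 0.0279), a call lost without any 1 of the 4 arrays (-0.54 to -0.38) and with the 3′ to 5′ covariate (-0.27). In pmel-1 recipients it gave -0.36 with dabrafenib and -0.29 with both drugs, not called. Its other probe set, above 5.79 on only 2 arrays, gave -0.91 with trametinib, -0.79 with dabrafenib and -1.13 with both drugs. The limma adjusted p over probe sets was 0.00867, 0.0161 and 0.00114. In control recipients given both drugs this probe set gave 0.33, not called. Lama2, Lamb1, Lamc1 and Lamc3 were called in no comparison by the probe sets kept. Lamb1 and Lamc1, chains of the most widespread laminins, differed by 0.03 (95% interval -0.19 to 0.25) and -0.10 (95% interval -0.36 to 0.16) with both drugs over both kinds of recipient. Each has a dimmer probe set, above 5.79 on all 13 arrays, that fell in pmel-1 recipients. That of Lamc1 gave -0.84 with both drugs, -0.82 with dabrafenib and -0.66 with trametinib (limma adjusted p over probe sets = 1.85e-04, 5.29e-04 and 0.00188). That of Lamb1 gave -0.62, -0.90 and -0.57 (adjusted p = 0.00767, 0.00192 and 0.022), so for both chains the reading depends on the probe set. In control recipients given both drugs these dimmer probe sets gave -0.05 for Lamc1 and -0.08 for Lamb1, not called. They were not fitted with the 3′ to 5′ covariate.

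Of the 5 leukocyte integrins, Itgam was not tested and 3 rose in pmel-1 recipients given dabrafenib (21.8% of all genes rose) or both drugs (24.3%). None was called in control recipients, where 35.4% of all genes were. Itgb2, the beta2 chain that pairs with alphaL, alphaM and alphaX, was read first in pmel-1 recipients. It read 7.12 and 6.81 with vehicle, 8.15 and 8.58 with dabrafenib, 7.05 and 6.61 with trametinib and 8.25, 8.70 and 8.25 with both drugs. In control recipients it read 6.27 and 6.61 with vehicle and 6.85 and 6.89 with both. The arrays of dabrafenib and of both drugs in pmel-1 recipients lay above all others. The rise in pmel-1 recipients was 1.44 ± 0.19 with both drugs (2.71-fold, adjusted p = 1.63e-04) and 1.40 ± 0.21 with dabrafenib (2.65-fold, adjusted p = 4.56e-04). In control recipients the difference was 0.42 ± 0.21 (adjusted p = 0.15).

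Itgax, which encodes CD11c of dendritic cells and some macrophages, read 5.44 and 5.83 with vehicle in pmel-1 recipients, 6.88 and 7.41 with dabrafenib, 6.64 and 6.20 with trametinib and 7.23, 7.43 and 6.84 with both. In control recipients it read 5.53 and 5.90 with vehicle and 5.67 and 5.88 with both drugs. Of the 4 vehicle arrays, 2 were not well above background, 1 of them in pmel-1 recipients, so no fold is given. The rises in pmel-1 recipients were 1.53 ± 0.22 with both drugs (adjusted p = 2.58e-04), 1.51 ± 0.24 with dabrafenib (adjusted p = 6.66e-04) and 0.78 ± 0.24 with trametinib (adjusted p = 0.0251). The last was lost without pmel-1 vehicle replicate 1 (0.59) or trametinib replicate 1 (0.56), and with the 3′ to 5′ covariate (0.31). The 3 tested dendritic cell markers were called in no comparison, and 3 of the 6 on the array were under 5.79 in every group.

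Itgal, the alpha chain of LFA-1 on T cells and other leukocytes, read 5.66 and 6.21 with vehicle in pmel-1 recipients, 6.89 and 7.63 with dabrafenib, 6.39 and 6.31 with trametinib and 7.08, 7.46 and 6.80 with both. In control recipients it read 5.74 and 5.91 with vehicle and 5.43 and 5.75 with both drugs. It rose by 1.18 ± 0.24 with both drugs (adjusted p = 0.00219) and 1.33 ± 0.27 with dabrafenib (adjusted p = 0.00235) in pmel-1 recipients. Vehicle replicate 1 of these recipients (5.66) was not well above background, so no fold is given. The difference with trametinib was 0.42 ± 0.27 (adjusted p = 0.25). Its other probe set did not follow (0.05 with both drugs, 0.06 with dabrafenib). With the 3′ to 5′ covariate the kept probe set gave 0.57 and 0.73, not called.

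Itgb7, the beta chain of the gut-homing integrin of lymphocytes, read 6.60 and 6.78 with vehicle in pmel-1 recipients, 6.71 and 7.04 with dabrafenib, 6.72 and 6.79 with trametinib and 7.20, 6.92 and 6.67 with both. In control recipients it read 6.59 and 6.61, and 6.36 and 6.36 with both drugs, and it was called in no comparison. Itgam, which encodes CD11b of myeloid cells, read 4.07 to 4.75 on all arrays, not well above background, so no direction is given for it.

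General leukocyte genes moved with these integrins. The mean log2 level of 13 such genes was 6.76 to 6.81 and 7.14 to 7.18 in the vehicle groups of control and pmel-1 recipients, 7.23 to 7.31 with both drugs in control recipients and 7.39 to 7.77 with trametinib. It was 8.44 to 8.94 with dabrafenib and 8.54 to 8.95 with both drugs in pmel-1 recipients. Of the 13 genes, 12 rose with both drugs in pmel-1 recipients (24.3% of all genes), 12 with dabrafenib (21.8%), 4 with trametinib (19.5%) and 4 with both drugs in control recipients (18.7%). Macrophage markers (13 on the array, 12 tested) had mean levels of 8.97 to 9.55 with dabrafenib and 9.05 to 9.49 with both drugs in pmel-1 recipients. In the other groups these means were 7.68 to 8.54. Levels of Itgal, Itgax and Itgb2 were highest in the same 2 groups, and the part of leukocyte number in them was not tested.

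The drugs were compared with each other in pmel-1 recipients, at doses and times not given in the sources used here. Of the 28 genes, 1 differed between dabrafenib and trametinib, where 0.776% of all genes did, and it was Itgb2. It was higher with dabrafenib by 1.53 ± 0.21 (2.9-fold, adjusted p = 0.0137), a call lost without dabrafenib replicate 2 (1.32) or trametinib replicate 2 (1.32). Trametinib minus vehicle gave -0.13 ± 0.21 for Itgb2 (95% interval -0.60 to 0.34). Both drugs minus trametinib gave 1.57 ± 0.19 (2.97-fold, adjusted p = 0.00854), again the only call of 28 (1.1% of all genes) and lost without trametinib replicate 2 (1.35). Both drugs minus dabrafenib gave 0.03 ± 0.19 for Itgb2 (95% interval -0.39 to 0.46), and 0 of 28 genes were called there (0% of all genes), with 0 at an unadjusted p under 0.05 by limma.

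Counts against vehicle were alike in size for the single drugs. With dabrafenib 10 of 28 changed (41.4% of all genes), 7 higher (21.8%) and 3 lower (19.6%). With trametinib 11 of 28 changed (38.6% of all genes), 8 higher (19.5%) and 3 lower (19.1%). The trametinib count rests on its few arrays: it was 7 without pmel-1 vehicle replicate 1, and 6 without any 1 of vehicle replicate 2, trametinib replicate 1 and trametinib replicate 2. Itga8 and Lamb2 kept their direction in both single-drug comparisons.

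Between pmel-1 and control transfer, tumours given vehicle showed 0 called genes of 28 (0% of all genes), with 3 at an unadjusted p under 0.05 by limma. In tumours given both drugs 4 of 28 were called, all higher in pmel-1 recipients, where 4.24% of all genes were called, 2.66% higher and 1.58% lower. Itgb2 was higher by 1.53 ± 0.19 (2.9-fold, adjusted p = 0.00199). Itgax was higher by 1.39 ± 0.22 (adjusted p = 0.00747), with 1 of the 2 control arrays not well above background. Itgal was higher by 1.52 ± 0.24 (adjusted p = 0.00746), and because both control arrays were not well above background the fold is at least 2.50. The other Itgal probe set gave -0.06 here (limma adjusted p over probe sets = 0.841), so this difference depends on the probe set. Itgb3 was higher by 0.53 ± 0.12 (adjusted p = 0.0383).

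Without control combination replicate 2 the calls of Itgal (1.36), Itgax (1.28) and Itgb3 (0.43) were lost and 1 gene was called. Itgb3 was also lost without control combination replicate 3 or pmel-1 combination replicate 1 or 2 (0.51 to 0.62), and with the mean of its probe sets (0.31). The count rose to 7 without pmel-1 combination replicate 3, where Itgb7, Lama2 and Lama4 joined. With the 3′ to 5′ ratio as a covariate 0 of the 4 passed, with values of 1.14 for Itgb2, 0.97 for Itgal, 0.85 for Itgax and 0.29 for Itgb3. The ratio was 1.31, 1.26 and 0.86 in the pmel-1 arrays and 0.19 and 0.42 in the control arrays. Of the 13 general leukocyte genes, 11 were higher in pmel-1 recipients in this comparison (2.66% of all genes).

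The interaction asks whether the effect of both drugs differed between recipient kinds. None of the 28 genes passed (0.283% of all genes did), with 6 at an unadjusted p under 0.05 by limma. The estimates were 1.47 for Itgax, 1.42 for Itgal, 1.01 for Itgb2 and 0.85 for Itgb3 (adjusted p = 0.106, 0.130, 0.155 and 0.085). For Itga8, the effect of both drugs was -3.21 in control and -3.50 in pmel-1 recipients.

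Partner genes of the same pathway were read from lists of activators and adaptors, basement membrane partners, and ligands. Each list is given by counts and a median, with no test of the list, and some of its genes are named. Of 25 tested activators and adaptors, 11 rose and 3 fell with both drugs over both kinds of recipient, where 28.1% of all genes rose and 24.5% fell, with a median of 0.15 against 0.01 for all genes. The share called was near that of all genes (52.6%). Tns1, a tensin that links integrins to actin, rose by 1.80 ± 0.13. Cav1, the caveolin that binds integrins at the membrane, rose by 0.81 ± 0.08. Parvb, a parvin of the integrin-linked kinase complex, fell by 0.84 ± 0.08. Bcar1, the p130Cas adaptor of focal adhesions, fell by 0.69 ± 0.06. Fermt3, the kindlin that activates integrins of blood cells, was chosen after its values were seen. It rose by 1.91 ± 0.31 with both drugs in pmel-1 recipients, with 0.31 ± 0.34 in control recipients (adjusted p = 4.84e-04 and 0.519).

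Of 11 tested basement membrane partners and laminin receptors, 5 rose and 0 fell (28.1% and 24.5% of all genes), with a median of 0.31. Nid1, the nidogen that joins laminin to collagen IV, rose by 1.39 ± 0.13. Col18a1, a collagen of basement membranes, rose by 1.09 ± 0.09. Sparc, a collagen-binding matrix protein, rose by 0.39 ± 0.11, and Hspg2, which encodes perlecan, by 0.46 ± 0.16. Nid1 rose by 1.34 ± 0.19 in control and 1.44 ± 0.17 in pmel-1 recipients, and by 1.39 ± 0.19 with dabrafenib and 1.29 ± 0.19 with trametinib.

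Of 11 tested integrin ligands, 5 rose and 2 fell (28.1% and 24.5% of all genes), with a median of 0.22. Cdh1, E-cadherin, the ligand of the alphaE chain, rose by 3.31 ± 0.22. Vwf, von Willebrand factor, rose (adjusted p = 5.18e-05) from 4.81 to 5.88 on the vehicle arrays, 3 of which were not well above background, to 6.55 to 7.34 on the combination arrays. Icam1, a ligand of the beta2 integrins, rose by 0.54 ± 0.12. Thbs1, thrombospondin 1, fell by 2.67 ± 0.30. Npnt, nephronectin, was chosen after its values were seen because it is a ligand of alpha8. It rose by 0.86 ± 0.25 (adjusted p = 0.0135), opposite in direction to Itga8, and was called in neither kind of recipient alone (adjusted p = 0.0612 and 0.102).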

How the data were processed

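RNA of 13 SM1 tumour samples was biotin-labelled and hybridised to GeneChip Mouse 430 V2 arrays, per the labels' protocols. The deposited values are log2 intensities per probe set, made by the authors with RMA from the affy package, per the submitters' processing notes, which give no versions. Array percentiles differed by at most 0.21. The probe set definition used in RMA is not given in the sources used here.

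Of 45101 probe sets, 64 are controls, 34945 have 1 gene symbol in the platform annotation, 932 several and 9160 none. A symbol was represented by its brightest probe set on average. Genes that exceeded 5.79 (the 40th percentile) on 2 or more arrays entered 1 model of group means over all 13 arrays, with 7 residual degrees of freedom, in limma 3.58.1 under R 4.3.3. P-values were Benjamini-Hochberg adjusted over 13785 genes within each of 11 contrasts. The fit was also run on simulated data with independent noise, in which a small share of genes changed in a single comparison. Far larger shares were called here in the comparisons of a drug with vehicle. The simulation therefore does not test the fit under the conditions of these data.

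The 34 genes and all lists were chosen with earlier results of these data known. Values by array are given for the leukocyte integrins and for genes that passed with an absolute log2 difference of at least 1, and for some others where a result turns on them. From each partner list the up to 4 genes with the smallest p are named, and Fermt3 and Npnt besides. Alternatives were the filter, the probe set rule, median centring, array weights, the arrays in the fit, a replicate block, the 3′ to 5′ ratio as a covariate and arrays left out. They were run for the integrin and laminin genes and not for the partner lists. Apart from the probe set rule, each used the probe set kept for the gene. Other probe sets were therefore not fitted with the 3′ to 5′ covariate. The number of arrays limits the precision.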

Additional observations from a re-analysis of the deposited data

How the results depend on the processing

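No called value changed sign in any alternative. Of the 55 called values, 22 stayed called in every alternative run for them and 33 were lost in at least 1. Those that stayed include each fall of Itga8. With the 3′ to 5′ ratio as a covariate 26 of 55 were lost, with the 3 arrays high in adipocyte markers left out 13 of 51, with the replicate block 12 of 55, and with 1 array left out 77 of 301. The covariate gave 6 called genes in pmel-1 recipients given both drugs (11 in the fit reported), 4 with dabrafenib (10), 6 with trametinib (11), 3 for dabrafenib against trametinib (1), 3 for both drugs against trametinib (1) and 0 for the transfer under both drugs (4). Without the 3 adipocyte-high arrays the counts were 6 with dabrafenib and 6 with trametinib. Fits on only the arrays compared called 1 gene (Itgb3) in the interaction and 0 for dabrafenib against trametinib, and array weights called 2 for both drugs against trametinib. With 1 array left out, the counts ran from 6 to 7 for trametinib against vehicle, 0 to 3 for dabrafenib against trametinib, 0 to 1 for both drugs against trametinib and 1 to 7 for the transfer under both drugs. The causes were not tested.

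The replicate block gave 0 called genes for dabrafenib against trametinib and 0 for both drugs against trametinib, where Itgb2 was 1.53 and 1.56 with an adjusted p of 0.052 and 0.0526. It moved no other count by over 1.5 times. Deviations of same-numbered arrays had correlations from -0.46 to 0.45 over 23 pairs (median -0.07). In groups of 2 arrays the deviations mirror each other, so few of these values are independent. They showed no steady pairing by number, and a weak pairing cannot be judged from them.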
